A study of Mus musculus with 8 samples.

Results

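The genes described here were defined by detection. They were well above background on every array of cells that had received EBF1 and on neither array of cells that had not. The flag was the one set by the scanner software for each spot, averaged over repeated spots and cut at 0.5. A probe had to be flagged on all 6 EBF1 arrays and on no Empty array and to carry a gene symbol, and each gene was represented by its brightest such probe. The pattern held for 184 of 41174 probes (0.447%), and 170 of these carried 152 different symbols. Of those symbols, 11 were set aside by name under the rule, which left 141 genes of the 21015 with a symbol on the array. The opposite pattern, on both Empty arrays and on none of the 6 EBF1 arrays, held for 73 probes (0.177%).

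The cells were c-Kit+ fetal liver cells of Ebf1-/- embryos on the C57Bl/6 background, so none of the groups had a working Ebf1 gene of its own. They were kept on OP9 cells, a mouse stromal feeder line, with stem cell factor and Flt3 ligand at 10 ng/ml each and interleukin 7 at 5 ng/ml. A pMys retrovirus with an IRES-GFP marker delivered the point mutant EBF1-H240A (n = 3 arrays), wild-type EBF1 (EBF1wt, n = 3) or no EBF1 (Empty, n = 2), and GFP+ cells were sorted 36 h after transduction. Whether replicates came from separate animals or cultures is not stated in the labels. The p-values therefore measure only how far these samples spread, and that spread may be technical.

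EBF1 is a transcription factor that opens and activates genes of the B lineage, and progenitors without it halt before B cell commitment. It binds as a dimer to a palindromic DNA sequence, and its relatives are known from olfactory neurons and fat cells. The H240A exchange is known to weaken binding of EBF1 to CNOT3, which belongs to CCR4-NOT, a complex that shortens mRNA tails.

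The share of probes well above background was 54.6% to 59.7% per array, and no spot was saturated. One Ebf1 probe gave log2 signals of 10.44, 10.33 and 10.15 with EBF1-H240A, 10.18, 10.17 and 10.19 with EBF1wt, and 10.10 and 10.19 with Empty, and did not tell the groups apart, so it gives no check of the labels. Known EBF1-activated B-lineage genes did separate the EBF1 arrays from Empty: the summed scaled intensity of 25 such genes was 34330 to 37460 with EBF1-H240A and 59840 to 66750 with EBF1wt, against 3974 and 4236 with Empty. Their median log2 signal separated only the EBF1 arrays from Empty, at 6.92 to 7.39 with EBF1-H240A and 7.11 to 7.35 with EBF1wt, against 4.43 and 3.67. Cd79b alone made up 17.0% to 72.5% of the sums, and averaged 14.65 with EBF1-H240A and 14.42 with EBF1wt. Vpreb1 averaged 11.10 with EBF1-H240A and 14.71 with EBF1wt, against 5.72 with Empty. Of 22 tested genes of the list, limma called 2 higher and 7 lower with EBF1-H240A. None of these 25 was among the 141, and 3 of them were set aside by name. The arrays came from 2 slides. Slide 1 held 2 EBF1-H240A, 1 EBF1wt and 1 Empty array, and slide 2 held 1 EBF1-H240A, 2 EBF1wt and 1 Empty array.

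Signals are given as log2 of intensity scaled to a common 75th percentile per array. Over the 6 EBF1 arrays the members averaged 3.17 to 9.05, with a median of 4.44, and 77.9% of all tested probes had a higher average than that median. Only 7 members reached 8 and 29 reached 6, while 48 stayed under 4. Probes differ in how they respond, so this order ranks signals and not transcript levels. Because these are bulk samples, fewer cells of a type and less RNA per cell cannot be told apart.

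**Figure D1:**
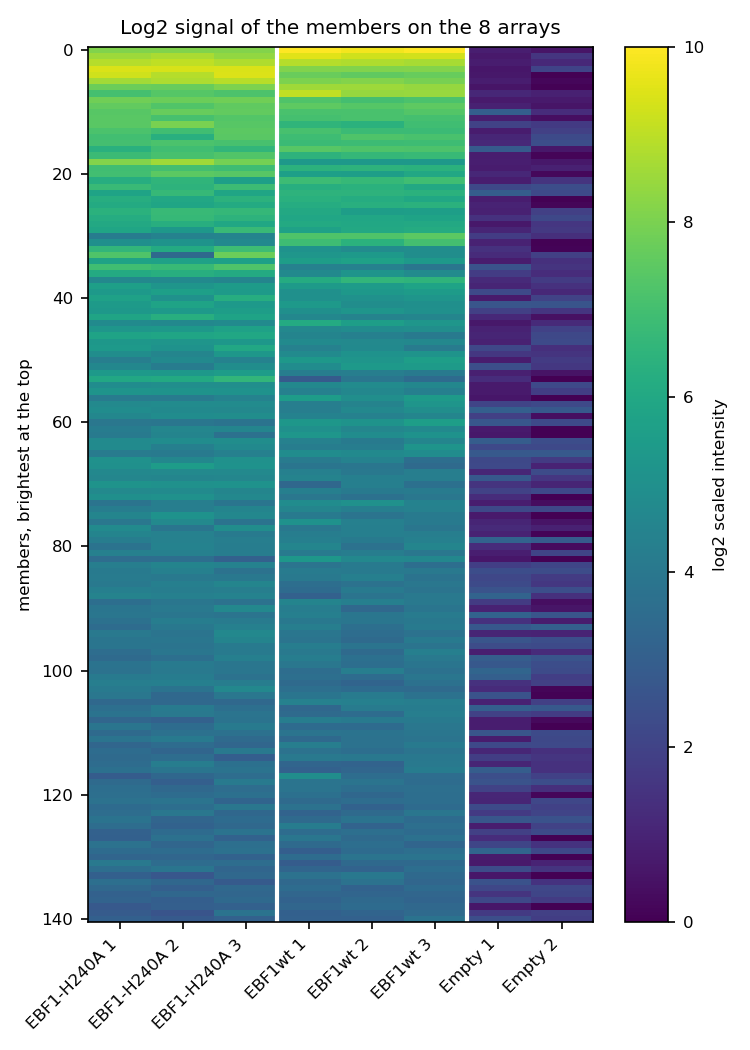
Log2 scaled intensity (colour) of the 141 members (rows, brightest at the top) on the 3 EBF1-H240A, 3 EBF1wt and 2 Empty arrays (columns). The Empty columns are dark throughout, at 0.00 to 3.28, and most members sit in the lower range on the EBF1 arrays, with a median of 4.44.

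The name "detected only with EBF1" holds for the flag used and not in full for weaker ones. By the scanner's weaker flag, a signal positive and significant against background, only 22 members were undetected on both Empty arrays, while 43 were detected on 1 Empty array and 76 on both. Other probes for the same gene differed as well. Of the 76 members with other probes, 34 had another probe that was well above background on both Empty arrays. Most of these were dim members. Among the 29 members that averaged 6 or more, Plet1, a surface protein of placenta and epithelial progenitors, was the only one with such a probe. Its member probe gave 6.93, 7.03 and 6.88 with EBF1-H240A, 6.43, 6.47 and 6.4 with EBF1wt, and 0.76 and 0.91 with Empty. Its other probe gave 10.82, 10.84 and 10.53 with EBF1-H240A, 10.09, 10.27 and 10.26 with EBF1wt, and 4.17 and 4.16 with Empty. Both probes were far lower with Empty, and the second was still measurable there. Conversely, 12 members had a further probe with the same pattern, among them Cd8a, Coch and Mgll.

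The members just inside the rule were barely separated from Empty. The potassium channel gene Kcnc4 gave 3.51, 3.54 and 3.73 with EBF1-H240A, 3.0, 3.49 and 3.67 with EBF1wt, and 3.23 and 2.17 with Empty, so 1 Empty value exceeded 1 EBF1wt value. The same was true of Nlrp12, an intracellular sensor, at 4.34 to 4.48 with EBF1-H240A and 3.11 to 4.03 with EBF1wt, against 3.19 and 1.40 with Empty. Gng8 and Heatr9 followed them. The gap between the lowest EBF1 array and the highest Empty array ran from -0.23 to 7.54 over the members, with a median of 2.20. Just outside the rule lay 323 named probes flagged on 1 Empty array and 73 missing 1 EBF1 array. They included large differences: Lct, the lactase gene, gave 12.09, 12.52 and 12.04 with EBF1-H240A, 11.15, 11.18 and 11.30 with EBF1wt, and 2.0 and 2.78 with Empty, where 1 Empty array was flagged. Lct was named after its values were seen. A single flag keeps it outside the rule.

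The flags chose the members, so their folds over Empty are a description with no test. On each Empty array the fold was set against the higher of the probe's own signal and the lowest signal that counted as well above background. Folds that used that lowest signal are lower bounds. They were at least 1.40-fold to at least 122-fold with EBF1-H240A (median 3.73) and at least 1.61-fold to at least 183-fold with EBF1wt (median 3.37). At least 16-fold was reached by 25 members with EBF1-H240A, by 21 with EBF1wt and by 18 with both. At the other end, 29 members had a bound under 2-fold with at least 1 of the proteins. Where the lowest signal well above background was used, the bound ends with the array's own sensitivity, and a small bound does not show a small change. That lowest signal was 2.912 on Empty replicate 1 and 2.057 on Empty replicate 2. The Empty values of Kcnc4, given above, were higher on each array, so its small fold is a measured one.

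The brightest member, and the one with the highest bound, was Tnnt2, the cardiac form of troponin T on the thin filaments of muscle (probe at chr1:137747976-137748288 of mm9). It gave 8.09, 8.09 and 8.13 with EBF1-H240A, 10.14, 9.83 and 10.04 with EBF1wt, and 0.84 and 0.55 with Empty. Every EBF1wt array lay above every EBF1-H240A array, and both groups lay far above Empty, at least 49.1-fold with EBF1-H240A and at least 183-fold with EBF1wt. A second Tnnt2 probe stayed at background on all 8 arrays. Stum, a membrane protein named after a fly gene of mechanosensory neurons, gave 8.53, 8.73 and 8.36 with EBF1-H240A, 9.54, 9.28 and 9.30 with EBF1wt, and 0.69 and 1.53 with Empty. The EBF1wt arrays were again the higher ones without overlap, but the difference of -0.83 ± 0.22 (SE) missed the threshold (adjusted p = 0.0809, limma).

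Growth hormone and a germ cell factor came next among the bright members. Gh gave 9.43, 9.38 and 9.44 with EBF1-H240A, 8.12, 8.11 and 8.14 with EBF1wt, and 0.59 and 2.0 with Empty. The EBF1 arrays of each group were nearly identical and the groups did not overlap, yet the difference of 1.29 ± 0.31 (SE) had an adjusted p of 0.0663, in a fit whose spread also includes the 2 Empty values. Without Empty replicate 1, and likewise without Empty replicate 2, Gh was called (adjusted p = 0.00179 in each case). Dmrtc2, a DMRT-family protein of male germ cells, gave 8.88, 9.05 and 8.82 with EBF1-H240A, 8.90, 8.80 and 8.69 with EBF1wt, and 0.79 and 1.16 with Empty. Here the EBF1 groups overlapped.

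Lipid droplet and lipase genes were also bright. Cidea, a lipid droplet protein of brown adipocytes, gave 8.63, 8.77 and 8.91 with EBF1-H240A, 8.04, 8.15 and 7.93 with EBF1wt, and 0.80 and 0.19 with Empty. Mgll, the monoglyceride lipase, gave 7.84, 7.76 and 7.83 with EBF1-H240A, 7.24, 7.03 and 7.15 with EBF1wt, and 0.72 and 0.74 with Empty. Both were higher on all EBF1-H240A arrays than on any EBF1wt array.

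Further bright members belong to defence, sensory signalling and cell junctions. Fcnb, ficolin B of the lectin arm of complement, gave 9.28, 8.87 and 9.49 with EBF1-H240A, 7.71, 7.56 and 7.67 with EBF1wt, and 0.63 and 0.00 with Empty. Gng13, a G protein gamma subunit of taste and olfactory cells, gave 7.75, 7.67 and 8.04 with EBF1-H240A, 8.56, 8.52 and 8.41 with EBF1wt, and 0.57 and 0.06 with Empty. Fcnb was the higher one with EBF1-H240A and Gng13 with EBF1wt. Ppl, periplakin of desmosomes, gave 7.06, 7.36 and 7.20 with EBF1-H240A, 9.06, 8.43 and 8.47 with EBF1wt, and 1.1 and 0.93 with Empty, again without overlap.

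Of the brightest 12, only Tnnt2, Fcnb, Ppl and Mgll were called between the proteins. Cidea (adjusted p = 0.0519, limma) and Gng13 (adjusted p = 0.0543, limma) narrowly missed the threshold. The members not yet described were not called either. Coch, cochlin of the inner ear matrix, averaged 7.47 ± 0.17 with EBF1-H240A and 7.46 ± 0.08 with EBF1wt (SD, n = 3 each), against 0.91 and 0.55 with Empty. The epithelial chloride transporter gene Slc26a9 averaged 7.55 ± 0.13 with EBF1-H240A and 7.20 ± 0.13 with EBF1wt (SD, n = 3 each), against 2.99 and 1.26 with Empty, and its EBF1 groups did not overlap (adjusted p = 0.666). Agouti, whose symbol is a and whose product is a ligand of melanocortin receptors, averaged 7.27 ± 0.18 with EBF1-H240A and 7.09 ± 0.03 with EBF1wt (SD, n = 3 each), against 0.81 and 0.39 with Empty.

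**Figure D2:**
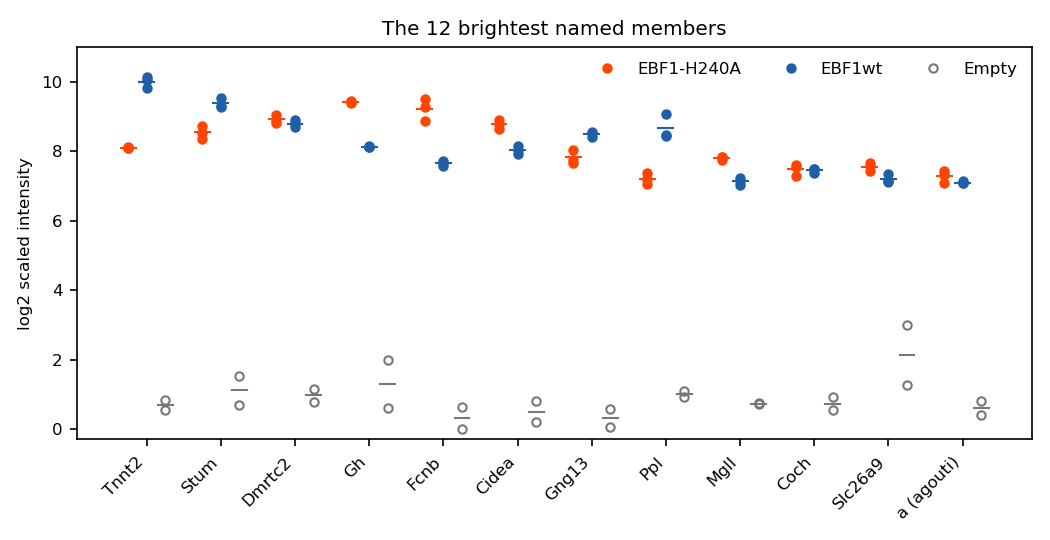
Log2 scaled intensity of the 12 brightest named members on each array (points; filled for EBF1-H240A and EBF1wt, open for Empty), with group means as bars. Tnnt2, Stum, Gng13 and Ppl were higher with EBF1wt and Gh, Fcnb, Cidea and Mgll with EBF1-H240A, while Dmrtc2 and Coch overlapped. Only Tnnt2, Ppl, Fcnb and Mgll were called between the proteins. No Empty value exceeded 2.99.

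Promoter windows were read from RefSeq on GRCm38.p6. Each spans 300 bases, most of them before the start of the gene, and 107 of the 141 members had one. The core of the EBF1 palindrome, CCCNNGGG, which reads the same on both strands, occurred in 30 of the 107 (28.0%), beside 15.4% of all 27025 genes with a window and 20.8% of the 10889 whose probes were tested. The same core with a T directly before it and an A directly after it occurred in 2 (1.87%), beside 1.06% of all genes. A scrambled core, GGGNNCCC, also its own reverse complement and able to share bases with the first, was in 21 (19.6%), beside 13.5% of all genes and 17.7% of the tested ones. Median GC content of the windows was 57.0% for members, 60.0% for tested genes and 52.7% for all. A match is a run of letters and is no evidence of binding.

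The windows below were picked because they hold the core, shown in capitals, from bright members or members that differed most between the proteins. Among the 12 brightest members, the windows of Tnnt2, Stum, Dmrtc2, Slc26a9 and agouti lack the core, and Gh, Cidea and Ppl have no window. In Fcnb the core lies 146 bases before the start, in Gng13 95, in Mgll 60 and in Coch 136, the last 3 as overlapping matches.
Fcnb, chr2:28084829-28085128, minus strand: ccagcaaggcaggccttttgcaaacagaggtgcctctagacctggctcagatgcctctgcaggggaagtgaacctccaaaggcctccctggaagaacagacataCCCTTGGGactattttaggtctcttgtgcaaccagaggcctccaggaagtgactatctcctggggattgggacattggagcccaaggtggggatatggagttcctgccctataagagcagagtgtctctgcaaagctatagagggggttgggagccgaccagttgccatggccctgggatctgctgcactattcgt
Gng13, chr17:25716922-25717221, plus strand: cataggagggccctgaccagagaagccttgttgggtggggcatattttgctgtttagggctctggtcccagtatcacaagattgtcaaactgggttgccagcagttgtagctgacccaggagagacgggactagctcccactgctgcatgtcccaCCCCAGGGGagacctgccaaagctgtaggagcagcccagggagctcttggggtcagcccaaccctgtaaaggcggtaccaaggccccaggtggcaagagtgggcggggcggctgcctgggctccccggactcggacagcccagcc
Mgll, chr6:88724162-88724461, plus strand: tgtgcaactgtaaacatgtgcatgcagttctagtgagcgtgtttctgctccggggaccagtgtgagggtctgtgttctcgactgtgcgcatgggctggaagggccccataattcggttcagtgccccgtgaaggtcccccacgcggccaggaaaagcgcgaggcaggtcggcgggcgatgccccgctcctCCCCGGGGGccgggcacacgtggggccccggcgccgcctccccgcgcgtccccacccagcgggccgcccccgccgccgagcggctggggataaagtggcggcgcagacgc
Coch, chr12:51593091-51593390, plus strand: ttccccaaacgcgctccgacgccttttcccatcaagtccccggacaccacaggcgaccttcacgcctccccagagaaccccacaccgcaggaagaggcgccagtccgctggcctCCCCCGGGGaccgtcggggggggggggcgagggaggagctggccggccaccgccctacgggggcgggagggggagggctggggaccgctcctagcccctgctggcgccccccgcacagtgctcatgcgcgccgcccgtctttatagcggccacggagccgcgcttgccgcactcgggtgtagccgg

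Cidec, next to Flrt1 among the largest increases with EBF1-H240A, and Scgb1c1, the largest decrease, also hold the core. Flrt1 has no window, and the windows of Orm2, Tnnt2 and Flywch2, which also differed strongly, lack the core. Cidec has a window at each of 2 annotated starts, with a match 187 bases before one and 112 before the other, and the match of Scgb1c1 lies 60 bases upstream.
Cidec (window 1), chr6:113434715-113435014, minus strand: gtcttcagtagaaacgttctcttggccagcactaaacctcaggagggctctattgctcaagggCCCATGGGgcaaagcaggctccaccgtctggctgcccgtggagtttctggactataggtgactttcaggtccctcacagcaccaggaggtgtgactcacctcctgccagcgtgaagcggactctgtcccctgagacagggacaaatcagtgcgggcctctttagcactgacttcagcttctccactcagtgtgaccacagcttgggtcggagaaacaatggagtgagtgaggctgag
Cidec (window 2), chr6:113435711-113436010, minus strand: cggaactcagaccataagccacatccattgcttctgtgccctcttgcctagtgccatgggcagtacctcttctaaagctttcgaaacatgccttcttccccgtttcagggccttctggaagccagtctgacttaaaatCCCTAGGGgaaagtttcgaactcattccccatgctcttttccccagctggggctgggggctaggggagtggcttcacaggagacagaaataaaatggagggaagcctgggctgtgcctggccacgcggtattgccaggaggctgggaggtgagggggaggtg
Scgb1c1, chr7:140845315-140845614, plus strand: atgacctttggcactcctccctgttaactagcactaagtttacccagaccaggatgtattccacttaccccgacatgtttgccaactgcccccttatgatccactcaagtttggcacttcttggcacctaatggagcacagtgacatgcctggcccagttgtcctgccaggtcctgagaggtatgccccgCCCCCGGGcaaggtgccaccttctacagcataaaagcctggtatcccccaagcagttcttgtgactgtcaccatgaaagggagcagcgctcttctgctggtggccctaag

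The core flanked by T and A was found in Irak3, a kinase-like brake on Toll-like receptor signalling, and in Plxnb1, a semaphorin receptor. The capitals mark its core, which lies 18 bases before the start in Irak3 and 159 in Plxnb1.
Irak3, chr10:120201548-120201847, minus strand: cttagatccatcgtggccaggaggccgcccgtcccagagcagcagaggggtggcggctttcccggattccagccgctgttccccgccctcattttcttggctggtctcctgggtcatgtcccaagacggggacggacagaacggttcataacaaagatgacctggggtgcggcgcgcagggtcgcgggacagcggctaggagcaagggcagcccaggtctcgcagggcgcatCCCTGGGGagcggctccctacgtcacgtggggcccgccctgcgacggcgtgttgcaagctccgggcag
Plxnb1, chr9:109095186-109095485, plus strand: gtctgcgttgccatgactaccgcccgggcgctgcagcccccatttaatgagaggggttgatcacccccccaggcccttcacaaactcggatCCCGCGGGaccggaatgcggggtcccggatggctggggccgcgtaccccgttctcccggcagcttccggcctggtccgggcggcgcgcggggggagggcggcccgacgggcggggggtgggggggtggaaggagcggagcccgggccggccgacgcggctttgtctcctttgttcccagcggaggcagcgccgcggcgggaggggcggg

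Neither of these was a bright member. Irak3 gave 4.79, 4.32 and 4.73 with EBF1-H240A, 4.23, 4.23 and 5.17 with EBF1wt, and 2.21 and 2.20 with Empty. Plxnb1 gave 5.24, 5.35 and 5.71 with EBF1-H240A, 4.67, 4.88 and 4.94 with EBF1wt, and 0.95 and 1.95 with Empty. Irak3 overlapped between the proteins, and the difference of Plxnb1, 0.60 ± 0.25 (SE), was not called (adjusted p = 0.230, limma).

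The comparison between EBF1-H240A and EBF1wt was not used to choose the members and was tested in limma over 24984 probes. Of all tested probes 3.06% were called higher and 2.21% lower with EBF1-H240A at an adjusted p under 0.05, and of those above background on all 8 arrays 2.96% and 2.32%. Of the members 17 were called higher (12.1%) and 11 lower (7.80%), and 113 were not called. The groups did not overlap for 45 members that were higher with EBF1-H240A and 28 that were lower, 31.9% and 19.9%, beside 16.1% and 12.2% of all tested probes. The median difference was 0.09 over the members and 0.02 over all tested probes, and the median size of the difference, whatever its sign, was 0.38 and 0.13. The members are dimmer than most tested probes, and the part of that in these shares was not tested.

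The counts moved with single arrays. The number called higher was 9, 9 and 12 without EBF1wt replicates 1, 2 and 3. It was 10, 11 and 8 without EBF1-H240A replicates 1, 2 and 3. The number called lower was 5, 9 and 8 without EBF1wt replicates 1, 2 and 3. It was 5, 7 and 6 without EBF1-H240A replicates 1, 2 and 3. Without Empty replicate 1, and likewise without Empty replicate 2, 20 were called higher and 13 lower. All 28 called members kept their direction within both slides, but this was fixed in advance, because their EBF1 groups did not overlap. With the slide as a block, 21 were also called. The 12 that were still called with every array left out in turn were Flrt1, Orm2, Fcnb, Trim66, B830017H08Rik, Mgll and Plet1 among the higher ones and Scgb1c1, Tnnt2, Flywch2, Ppl and Lrp4 among the lower ones, and the other 16 lost the call at least once.

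**Figure D3:**
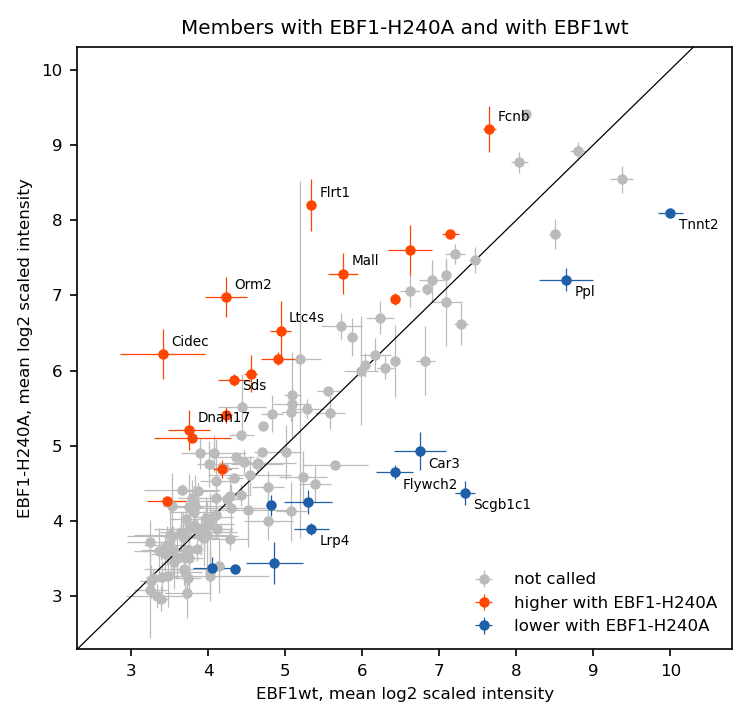
Mean log2 scaled intensity of each member with EBF1wt (x axis) and with EBF1-H240A (y axis), with SD over 3 arrays as error bars and the line of equality. The 17 members called higher with EBF1-H240A lie above the line and the 11 called lower below it, with Flrt1 at 8.20 against 5.34 and Scgb1c1 at 4.38 against 7.33 among the farthest from it.

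Flrt1, a membrane protein with leucine-rich repeats (probe at chr19:7170313-7170372 of mm9), gave 8.14, 8.57 and 7.90 with EBF1-H240A, 5.35, 5.33 and 5.34 with EBF1wt, and 0.84 and 0.65 with Empty. It was 7.28-fold higher with EBF1-H240A, a difference of 2.86 ± 0.16 (SE, adjusted p = 0.000976). Cidec, the lipid droplet protein of white adipocytes, gave 5.99, 6.08 and 6.6 with EBF1-H240A, 2.82, 3.91 and 3.49 with EBF1wt, and 1.25 and 0.00 with Empty. With EBF1wt it was just above background, at least 1.90-fold over Empty, against at least 13.4-fold with EBF1-H240A, and the proteins differed by 2.82 ± 0.39 (SE, adjusted p = 0.0127). That call was narrowly lost when 1 array was left out (adjusted p up to 0.0516). Orm2, an acute-phase glycoprotein, gave 6.95, 6.73 and 7.26 with EBF1-H240A, 4.38, 4.40 and 3.92 with EBF1wt, and 2.53 and 1.5 with Empty, a difference of 2.74 ± 0.29 (SE, adjusted p = 0.00526). The sizes depended on the processing. With normexp background correction the differences were 1.79 for Flrt1, 1.0 for Cidec and 1.16 for Orm2. That setting adds an offset of 50 to every corrected intensity, which by itself shrinks log2 differences of dim signals. In the authors' values the differences were 2.53, 1.85 and 1.90, in the same order of genes. All of these were still called.

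Moderate increases were called for enzymes and membrane proteins. Mall, a MAL-like protein of membrane rafts, averaged 7.29 ± 0.27 with EBF1-H240A and 5.75 ± 0.20 with EBF1wt (SD, n = 3 each). Ltc4s, leukotriene C4 synthase, averaged 6.53 ± 0.39 with EBF1-H240A and 4.94 ± 0.14 with EBF1wt, and Sds, serine dehydratase, 5.88 ± 0.08 with EBF1-H240A and 4.33 ± 0.20 with EBF1wt (SD, n = 3 each). Their adjusted p-values were 0.0202, 0.0488 and 0.0240, and each rose above the threshold when some single array was left out. Fcnb, described above, differed by 1.56 ± 0.20 (SE, adjusted p = 0.0103), and Mgll by 0.67 ± 0.07 (SE, adjusted p = 0.00539). Dnah17, a dynein heavy chain of sperm flagella, differed by 1.46, the small membrane protein Tmem190 by 1.32, the chromatin reader Trim66 by 1.25 and tenascin X, Tnxb, by 0.98.

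The largest decrease was that of Scgb1c1, a secretoglobin of nasal epithelium (probe at chr7:148032087-148032146 of mm9). It gave 4.20, 4.45 and 4.50 with EBF1-H240A, 7.26, 7.24 and 7.48 with EBF1wt, and 1.79 and 1.35 with Empty. The difference was -2.94 ± 0.14 (SE, adjusted p = 0.000863), and the bound over Empty was at least 3.73-fold with EBF1-H240A and at least 28.7-fold with EBF1wt. Tnnt2 fell by 1.90 ± 0.11 (SE, adjusted p = 0.000976) and Ppl by 1.45 ± 0.18 (SE, adjusted p = 0.00905). Car3, a carbonic anhydrase abundant in muscle and fat, gave 4.99, 5.14 and 4.66 with EBF1-H240A, 6.88, 6.37 and 7.02 with EBF1wt, and 0.97 and 0.07 with Empty. Flywch2 gave 4.65, 4.74 and 4.56 with EBF1-H240A, 6.14, 6.60 and 6.51 with EBF1wt, and 1.21 and 1.72 with Empty. Car3 and Flywch2 were thus lower on every EBF1-H240A array, by 1.83 ± 0.28 and 1.77 ± 0.17 (SE). Here too sizes shrank with normexp and its offset of 50, to -1.45 for Scgb1c1 and -0.76 for Flywch2, both still called. Tnnt2 was at -1.70.

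Smaller decreases were called for Lrp4, a receptor that acts at the neuromuscular junction (-1.43), the solute carrier gene Mfsd4a (-1.42), the metalloprotease gene Adamts7 (-1.05), the epithelial adhesion molecule Epcam (-0.98), the actin regulator Carmil3 (-0.67) and Garnl3 (-0.60). Of 21 other processing settings Carmil3 was called in 5 and Epcam in 8, fewer than the other decreases listed here. Size did not set this order: Garnl3, the smallest decrease, was called in 13 and Adamts7 in 10. With normexp background correction Carmil3 and Epcam differed by -0.09 and -0.17 (adjusted p = 0.921 and 0.615, limma). The offset of 50 in that setting by itself shrinks log2 differences of dim signals, so it cannot tell whether these calls are unstable. Some calls rested on 1 probe of several. A brighter Mfsd4a probe gave 7.16 with EBF1-H240A and 7.13 with EBF1wt, against 6.97 with Empty, on average, and another Garnl3 probe 4.40 with EBF1-H240A and 4.34 with EBF1wt, against 4.05 with Empty. The other probe of B830017H08Rik, a transcript called higher, averaged 4.40 with EBF1-H240A and 4.61 with EBF1wt, against 4.10 with Empty. None of these 3 moved with the proteins as the member probe did, and each was well above background on both Empty arrays. Over all called members, 12 had other tested probes, 17 in number. Of these, 14 differed in the same direction and 8 were called that way, but 3 of the 17, those of Ppl, Dnah17 and Mfsd4a, were above background on no array of one of the proteins. A further 4, for Tnnt2, Car3, Lrp4 and Garnl3, were above background on no array and were not tested. Neu1, lysosomal sialidase, is an example in which all probes differed alike, by 0.81, 0.55 and 0.63, although its other probes were well above background on both Empty arrays. Neu1, Sdsl and B830017H08Rik, all called higher, are named because of their values.

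By role, metabolism had the highest number of members called higher, 6 of 18, with 1 lower. They were Cidec, Ltc4s, Sds, Neu1, Mgll and Sdsl, and the lower one was Car3. The median difference over all 18 metabolism members, called or not, was 0.58. Among 13 members of cell structure and junctions, 4 were called lower (Tnnt2, Ppl, Epcam and Carmil3) and 2 higher, Mall among them, with a median of -0.15. The 16 members of matrix, adhesion and guidance were split, with Flrt1, Tnxb and Plet1 higher and Lrp4 and Adamts7 lower. These classes were assigned by textbook role and are described by counts only, beside the 3.06% and 2.21% of all tested probes.

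**Figure D4:**
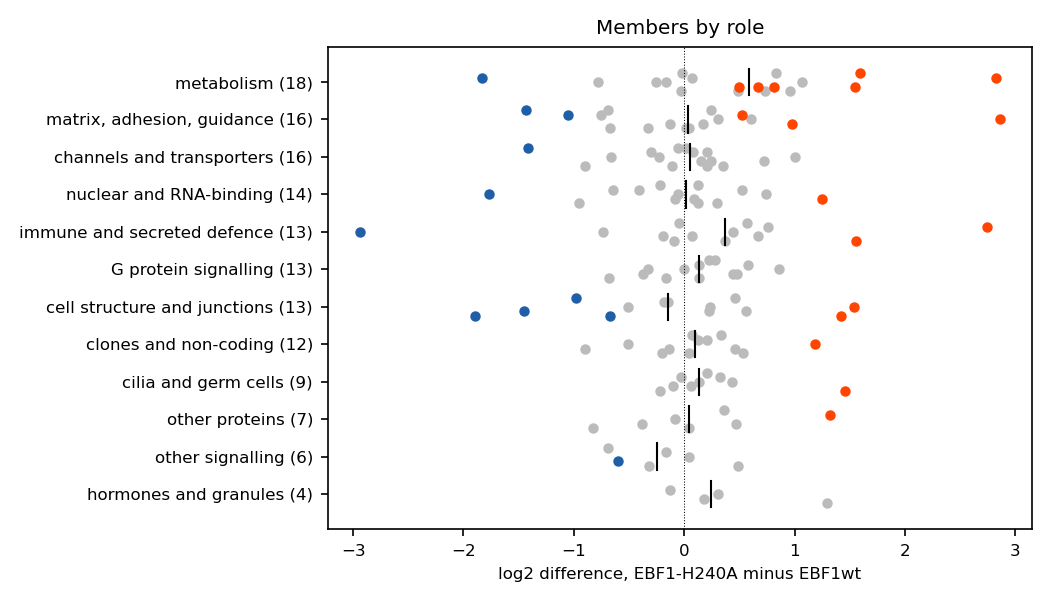
Log2 difference between EBF1-H240A and EBF1wt for each member (points), by role, with the number of members in brackets and the class median as a bar. Orange points were called higher, blue points lower and grey points neither; metabolism has 6 orange points of 18, and G protein signalling has none of either colour among 13.

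None of the 13 members of G protein signalling was called by limma, and 4 had an unadjusted p under 0.05. The 4 were Gng13, Gpr20, Omp and Lgr4. These results are those of the member probes. Another Lgr4 probe was called higher with EBF1-H240A (1.12 ± 0.19, SE, adjusted p = 0.0235), and a further one was not (0.23 ± 0.61, SE). Gpr20, an orphan receptor gene, averaged 6.59 ± 0.18 with EBF1-H240A and 5.73 ± 0.27 with EBF1wt (SD, n = 3 each). Rgs8, a regulator of G protein signalling, averaged 7.06 ± 0.22 with EBF1-H240A and 6.62 ± 0.13 with EBF1wt (SD, n = 3 each), with an unadjusted p of 0.0529 in limma. The 3 groups were also apart for Omp, the olfactory marker protein, which gave 6.19, 6.68 and 6.47 with EBF1-H240A, 5.91, 5.91 and 5.79 with EBF1wt, and 1.43 and 2.15 with Empty. Its difference between the proteins, 0.58 ± 0.20 (SE), was not called (adjusted p = 0.160). Of 16 channels and transporters only Mfsd4a was called. The choline transporter-like gene Slc44a4 averaged 7.08 with EBF1-H240A and 6.84 with EBF1wt, the calcium-activated chloride channel gene Ano1 6.62 with EBF1-H240A and 7.28 with EBF1wt, and the nicotinic receptor gene Chrna9 6.13 with EBF1-H240A and 6.43 with EBF1wt. Tmem35a, a chaperone of nicotinic receptors, averaged 6.70 with EBF1-H240A and 6.23 with EBF1wt.

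The 4 members of hormones and granules were not called by limma either, and Gh alone of them had an unadjusted p under 0.05. Chga, chromogranin A of neuroendocrine granules, gave 7.18, 6.94 and 7.48 with EBF1-H240A, 7.08, 6.80 and 6.81 with EBF1wt, and 0.78 and 1.88 with Empty. The calcium sensor of exocytosis Syt7 averaged 4.17 with EBF1-H240A and 4.29 with EBF1wt. In the nuclear class, Trim66 was called higher and Flywch2 lower of 14, and the histone family member H2ap was at 4.58 with EBF1-H240A and 5.23 with EBF1wt. Of 6 other signalling genes only Garnl3 was called; the natriuretic peptide receptor gene Npr2 was at 4.85 with EBF1-H240A and 4.36 with EBF1wt, the tyrosine kinase gene Src at 4.29 and 4.25, and Arl14 at 3.77 and 3.94, in the same order of groups. The 9 members of cilia and germ cells were all dim, at 3.26 to 4.48, with Dnah17 the only call. Gapdhs, the sperm form of a glycolytic enzyme, was level at its member probe, at 4.04 with EBF1-H240A and 3.97 with EBF1wt. Its other probe, flagged on 1 Empty array, was at 7.12 with EBF1-H240A and 8.08 with EBF1wt, a difference of -0.96 ± 0.10 (SE, adjusted p = 0.00605). Tex14 and Ttc25 were at 4.19 and 4.03 with EBF1-H240A and 3.75 and 3.71 with EBF1wt.

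Members of immunity and secreted defence varied between the EBF1-H240A arrays, with a median SD of 0.31 there and 0.20 with EBF1wt, beside 0.22 and 0.20 over all members. Cd8a, a chain of the CD8 co-receptor of T cells, gave 6.98, 6.30 and 7.45 with EBF1-H240A, 6.88, 7.26 and 7.14 with EBF1wt, and 1.06 and 2.23 with Empty. EBF1-H240A replicate 3 was the highest of its group for 11 of the 13 defence members and replicate 2 the lowest for 9, beside 56 and 50 of all 141 members. The widest spread of any member was that of Apol7c, an apolipoprotein L gene of the metabolism class named for its values, with 7.26, 3.43 and 7.77 with EBF1-H240A and 5.26, 5.42 and 4.90 with EBF1wt. Its other probe showed the same order, with 9.20, 5.10 and 9.87 with EBF1-H240A. Of 11 tested myeloid genes 3 were called higher with EBF1-H240A and none lower by limma, with 1 lower at an unadjusted p under 0.05. The summed scaled intensity of the myeloid list was 53240, 41000 and 51170 with EBF1-H240A and 35200 to 42940 with EBF1wt, against 30210 and 36540 with Empty. Lyz2 alone made up 41.2% to 63.2% of these sums. The median log2 signal of the list was instead highest with Empty, at 8.82 and 8.91. It was 7.15 to 7.65 with EBF1-H240A and 6.02 to 6.21 with EBF1wt. S100a9, a myeloid calcium-binding protein, gave 5.23, 4.97 and 6.64 with EBF1-H240A and 0.52 to 2.64 with EBF1wt, where it was not above background. The other genes called, Mpo and Prtn3, had the opposite order of arrays, with 7.65, 7.97 and 7.15 for Mpo and 11.11, 11.25 and 10.92 for Prtn3 with EBF1-H240A. Elane and Csf3r were on no array well above background. The part of myeloid cells in the defence members was not tested.

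Members included genes known from quite different tissues, and the marker lists of those tissues were read beside them. Of 17 olfactory neuron genes on the array, Gng13 and Omp were members, 6 were on no array above background, including Ebf2 and Ebf3, and none of the 11 tested was called by limma, with 2 at an unadjusted p under 0.05. Of 18 adipocyte genes, Cidea and Cidec were members. Among the 12 tested, Cidec and the adipocyte regulator Pparg (0.49 ± 0.07, SE, adjusted p = 0.0122) were called higher with EBF1-H240A, and the adipokine gene Adipoq (-0.44 ± 0.09, SE, adjusted p = 0.0389) lower. Leptin and Ucp1 were on no array above background. Of 20 striated muscle and heart genes Tnnt2 was the only member, and Tnnt2 and Tnni1 (-1.04 ± 0.12, SE, adjusted p = 0.00825) were called lower of 13 tested. The muscle list's summed intensity was 1261 to 1440 with EBF1-H240A and 2687 to 3179 with EBF1wt, against 4576 and 4380 with Empty, but Tnni1 alone made up 50.3% to 94.4% of it. The median log2 signal of the list was 2.22 to 2.97 with EBF1-H240A and 2.46 to 3.16 with EBF1wt, against 2.12 and 2.02 with Empty.

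Lists for other cell types that the cultures could hold were read in the same way, and no listed gene was a member. The erythroid gene Alas2 nevertheless showed the members' pattern, at 7.04 with EBF1-H240A and 7.93 with EBF1wt, against 0.98 with Empty, and had been set aside by name. Cd8a, a member, was not on the T cell list. Neuron and synapse genes had 1 call of 12 tested, lower with EBF1-H240A, and erythroid genes 2 of 6, both lower. Stromal feeder genes had 1 higher and 1 lower of 16 tested, and their summed intensity was 263200 to 278100 with EBF1-H240A and 210600 to 234600 with EBF1wt, against 175100 and 159000 with Empty. S100a4 alone made up 83.6% to 90.3% of that sum, and the list's median log2 signal was 6.63 to 6.95 with EBF1-H240A and 6.58 to 6.85 with EBF1wt, against 6.26 and 6.19 with Empty. The part of feeder cells in the members was not tested. Hepatocyte genes, a check for the liver-made proteins Orm2, Saa1 and Saa2, had 7 of 8 on no array above background. The one detected was Ahsg, which averaged 5.66 with EBF1-H240A and 7.35 with EBF1wt, against 9.03 with Empty, and was called lower (-1.69 ± 0.08, SE, adjusted p = 0.000863). Of T and innate lymphoid genes, 2 were called higher and 3 lower of 13 tested, with sums of 32220 to 35360 with EBF1-H240A and 30530 to 33150 with EBF1wt, against 50730 and 49640 with Empty.

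Gh and Dmrtc2 lie close to genes that EBF1 is known to activate. By probe position on mm9, Gh is 10.0 kb from Cd79b, with no coding gene between them, and Dmrtc2 is 21.9 kb from Cd79a, with Rps19 between them. Cd79a and Cd79b encode the signalling chains of the B cell receptor. These were 2 of 141 members (1.42%) within 100 kb of a listed EBF1-activated gene, beside 105 of 20934 genes on the array (0.502%). Around Cd79b, Tcam1 at 23.3 kb averaged 6.81 with EBF1-H240A and 5.73 with EBF1wt, against 4.38 with Empty, while Scn4a, 7.88 kb to the other side, averaged 5.17, 5.64 and 4.90 in the same order. Cd79b itself averaged 14.65 with EBF1-H240A and 14.42 with EBF1wt, against 9.48 with Empty. Around Cd79a, the ribosomal protein gene Rps19 was level, at 16.40 with EBF1-H240A and 16.31 with EBF1wt, against 16.31 with Empty, although it lies between Cd79a and Dmrtc2. The Cd79a probe was dim, at 3.22 with EBF1-H240A and 3.26 with EBF1wt, against 2.35 with Empty. The neighbours were looked up after the members' values were known.

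**Figure D5:**
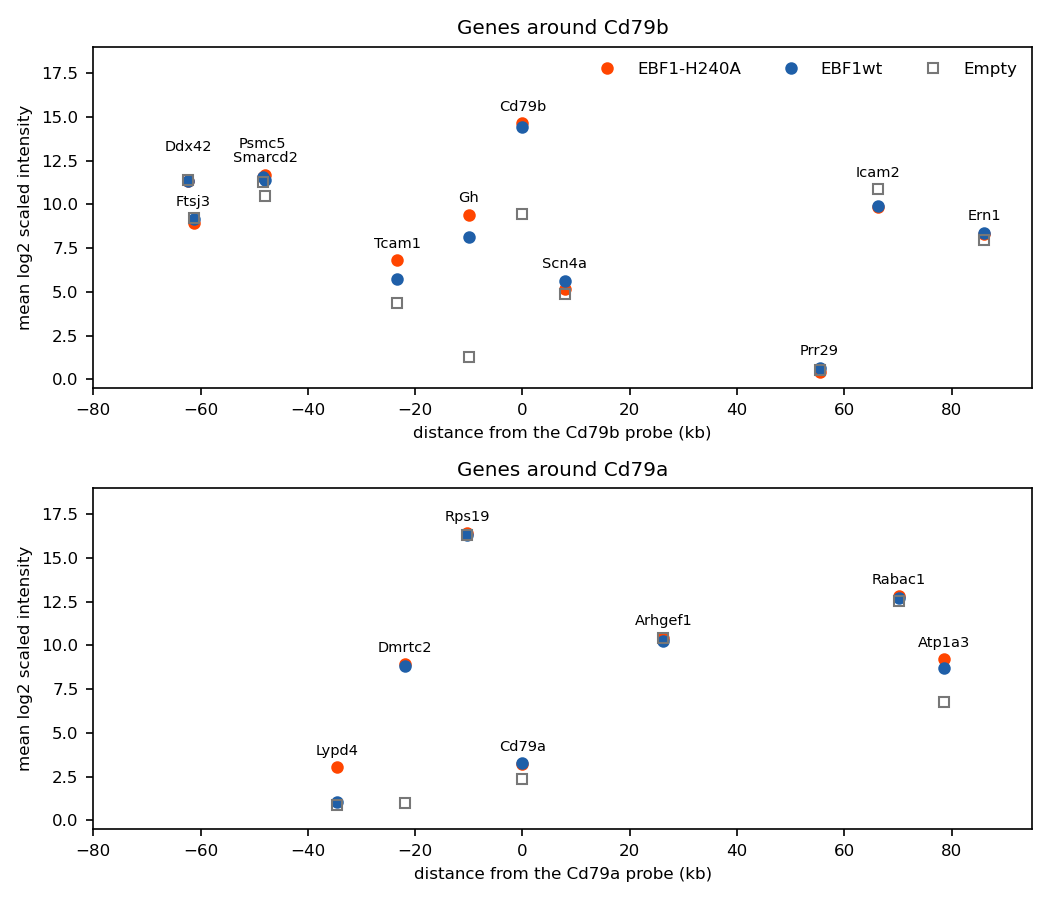
Mean log2 scaled intensity of genes on the array within 100 kb of Cd79b (top) and Cd79a (bottom) by distance of their probes in kb, for EBF1-H240A, EBF1wt (filled) and Empty (open). Gh and Dmrtc2 show the widest gaps to Empty, at 9.41 and 8.12 against 1.30 and at 8.92 and 8.80 against 0.97, while Rps19 and Ddx42 are level.

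Members also lay beside each other, 12 of 141 (8.51%) within 100 kb of another member, beside 560 of 20818 other genes on the array (2.69%) within 100 kb of a member. No test was made of this. Slc44a4 and Neu1 were 6.43 kb apart, the antisense transcript Plet1os and Plet1 9.72 kb, Saa1 and Saa2 12.9 kb, and Sdsl and Sds 24.7 kb. Pairs of related genes such as Saa1 and Saa2 can share signal on an array through similar sequence. Saa2 gave 5.71, 5.06 and 6.23 with EBF1-H240A and 5.02, 5.05 and 5.21 with EBF1wt, against 0.73 and 1.99 with Empty, and Saa1 4.11, 3.81 and 4.68 with EBF1-H240A and 3.66, 3.48 and 3.44 with EBF1wt, against 1.24 and 0.12 with Empty. A brighter Saa1 probe was well above background on all arrays, at 10.62 with EBF1-H240A and 9.76 with EBF1wt, against 8.46 with Empty, and was called higher with EBF1-H240A (0.86 ± 0.16, SE, adjusted p = 0.0309). The member probes of both genes dipped on EBF1-H240A replicate 2. Sds and Sdsl were both called higher with EBF1-H240A, whereas Plet1os, at 6.07 with EBF1-H240A and 6.03 with EBF1wt, was level beside Plet1, which was called higher by 0.52 ± 0.07 (SE, adjusted p = 0.0109).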

How the data were processed

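RNA of 8 samples was hybridised to one-colour Agilent arrays after Cy3 labelling of 0.2 ug, per the labels' protocols. Scans were read by version 10.5.1.1 of Agilent Feature Extraction, as the submitters' processing notes give it. The deposited processed signal is, per the file headers, a background-subtracted intensity on a linear scale. Mean and background intensities were deposited too, with 0 or 1 flags for being well above background, used as a fraction over repeated spots. The deposited value table holds the authors' log2 values, normalized between arrays by a method not given in the sources used here, and served as an alternative.

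Each array's 43379 non-control intensities were brought to a common 75th percentile (262.6), floored at 1 and turned to log2. Values of repeated spots were averaged without outliers. Probes well above background on at least 2 arrays were kept (25008), and 24 with a missing value were left out. EBF1-H240A minus EBF1wt was tested in R 4.3.3 with limma 3.58.1 (eBayes after lmFit, two-sided, Benjamini-Hochberg over 24984 probes) with all 8 arrays and no covariate. The fit had 5 residual and 1.94 prior degrees of freedom. On simulated data for this comparison with 24984 probes, 43 of 50 probes changed by a log2 of 2, 37 of 50 changed by 1, 37 of 50 changed by -1 and 20 of 50 changed by 0.5 were recovered. The number of arrays limits the precision.

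Where a gene was not well above background on a group's arrays, its fold is a bound. The other group's mean was set against the mean, per array, of the higher of the probe's signal and the lowest signal well above background. Where the probe's signal was the higher on every array of the group, the bound equals the measured fold. Names were brought up to date through RefSeq tables (27816 probes by accession, 5503 by symbol, 380 by an older symbol; 7475 kept the file's name), and 10 members had older names in the files. Probe positions are those of mm9 in the files. The members, lists and tests were chosen with earlier results of these data known. Named are the 12 brightest members, the 10 largest called differences each way, the 4 with the smallest and the 4 with the largest gap to Empty, members in a marker list, the 4 brightest of each role and those with the flanked motif. Alternatives covered background correction, normalization, filters, the value table, slide, replicate block, single arrays, 1 probe per gene and limma-trend. The background correction was normexp with an offset of 50. Same-numbered EBF1-H240A and EBF1wt arrays did not deviate together (r = 0.142, -0.201 and 0.084), so the numbers were not taken as pairs. 1 of the members called higher with EBF1-H240A is not reported here by name.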

Additional observations from a re-analysis of the deposited data

Results flagged for a closer look

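Besides the genes with a symbol, 14 probes without one showed the same pattern, not well above background on both Empty arrays and well above it on all 6 EBF1 arrays. They were singled out because no comparison above uses them. The brightest, AK040987 on chromosome 4, gave 5.00, 5.16 and 4.67 with EBF1-H240A, 6.34, 6.11 and 5.65 with EBF1wt, and 1.13 and 0.24 with Empty. Of the others, 3 probes lie near each other on chromosome 6, S60874 from base 67675577, U30243 from 68071741 and X63808 from 68654522 of mm9. U30243 averaged 4.74 with EBF1-H240A and 4.68 with EBF1wt, against 2.83 with Empty.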

How the results depend on the processing

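The number of members was 91 with the flag for a positive and significant signal, 28 of them shared with the 141, so membership depends on the flag. Against 1318 called probes, the count was 856 with the authors' value table, 372 with no filter on dim probes, 774 with the slide as a block, 477 with the replicate block, 2226 with limma-trend, and 466 to 978 with 1 array left out. Of the members, 8 were called higher and 5 lower with no filter, where more probes were tested. With the replicate block 6 were called higher and 8 lower, and 14 of the 28 called members stayed called. With 1 array left out 8 to 20 were called higher and 5 to 13 lower. Within slide 1 and within slide 2 no probe and no member was called by limma (0 in each, with 1 residual degree of freedom), while 2360 and 2302 probes had an unadjusted p under 0.05. The median difference of the members, 0.094 as reported, was 0.019 with the authors' value table, 0.059 with normexp, 0.152 and 0.181 within slides 1 and 2, and 0.063 to 0.11 with 1 array left out. With 1 probe per gene, Mfsd4a was at 0.03, Garnl3 at 0.06 and Gapdhs at -0.96 (adjusted p = 0.912, 0.866 and 0.00405), because another probe stood for the gene. Over the other values of single named members, 1037 kept direction and side of the threshold, 161 lost a call and 38 gained one. Dim signals limit most members, and the cause of the other shifts was not tested.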
